A study of Mus musculus with 4 samples.

Results

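The interleukin 1 system of Hepa1-6 cells was described here through 9 genes: the receptor antagonist Il1rn, the agonists Il1a, Il1b, Il18 and Il33, the receptor chains Il1r1, Il1r2 and Il1rap, and the protease Casp1. The genes were taken by symbol from a table of 54838 annotated genes, and the family was chosen with earlier knockdown-against-control results of the same libraries known. Hepa1-6 is a mouse hepatocellular carcinoma line. The knockdown group held 2 libraries from cells carrying a short hairpin RNA labelled shSet, against Setdb1, an H3K9 methyltransferase. The control group held 2 libraries from cells of the same line carrying the hairpin labelled shNC, with Setdb1 given as wild type. The series' design text speaks of subclones, and the labels do not say whether the libraries of a group came from separate cultures or subclones, so the spread between them, and every p-value, may be technical only. No age, dose or time after transduction was given.

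Interleukin 1 alpha and beta signal through a receptor complex of Il1r1 and the accessory chain Il1rap, which recruits Myd88 and Irak kinases and leads to NF-kB and MAP kinase activity. Il1rn binds Il1r1 without recruiting the accessory chain and so blocks it, while Il1r2 binds ligand but has no signalling domain. Il1b and Il18 are made as precursors that Casp1 cleaves inside inflammasomes. Il33 is a nuclear cytokine released on cell damage that signals through Il1rl1 and the same accessory chain. In the liver, hepatocytes answer interleukin 1 by secreting acute-phase proteins, and the receptor antagonist itself is among the proteins they make in that response.

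Each library held between 19513567 and 19615440 expected counts, so depth was nearly equal. Setdb1 stood at 3.0 and 2.51 TPM (a level scaled for transcript length and library size) in the knockdown libraries, against 14.6 and 17.46 TPM in the control libraries. That is a log2 fold change, knockdown over control, of -2.49 ± 0.182 (SE) with an adjusted p of 0.0001495 over 12821 genes by edgeR's quasi-likelihood test with Benjamini-Hochberg adjustment. The 10 hepatocyte and hepatoma markers summed to 2289 and 2041 TPM in knockdown and 1624 and 1762 TPM in control. Alb and Fgb were called higher, Hnf4a was called lower, Afp, Apoa2, Trf and Serpina1a were not called, and Apoa1, Ttr and Ambp were near 0 in all libraries. Of 10 lymphocyte and pan-leukocyte markers 6 were at 0 in all libraries, and their summed level was 0.08 to 0.11 TPM in knockdown and 0.05 to 0.17 TPM in control. The 11 macrophage and monocyte markers summed to 30.51 to 32.84 TPM in knockdown and 26.21 to 27.46 TPM in control. Cd68 and Cd14 carried most of that sum, while Ptprc did not exceed 0.06 TPM in any library and 2 of the 11 were at 0 in all 4. The 5 keratinocyte markers summed to 17.47 and 18.4 TPM in knockdown and 12.21 and 16.49 TPM in control, with Krt14, called higher, at 5.84 and 6.86 TPM in knockdown and 0.90 and 1.27 TPM in control. The other lists were near 0: stellate and fibroblast markers summed to 1.86 and 1.49 TPM in knockdown and 0.82 and 1.18 TPM in control, with Col1a1 called higher. Endothelial markers summed to 0.9 and 0.45 TPM in knockdown and 0.21 and 0.18 TPM in control. Of these 5 markers only 1 was tested, and it was not called. Neutrophil markers summed to 1.66 and 0.93 TPM in knockdown and 0.28 and 0.85 TPM in control, and none of the 6 was tested. The part of these markers in any difference described here was not tested. In bulk RNA, fewer cells of a type and less RNA per cell cannot be told apart.

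Promoter windows of the 3 detected ligand genes, Il1rn, Il18 and Il33, are shown because they differ in motifs. Another Il1rn window, which overlaps the downstream window, and the upstream Il33 window are not shown. The sequences are RefSeq's for GRCm38.p6, 250 bases before to 50 bases after a start, 5′ to 3′ on the gene's strand. Capitals mark matches on either strand to the AP-1 motif, spelled TGANTCA. They also mark the C/EBP motif, spelled TTNNGNAA, and the NF-kB consensus. The TATA box, spelled TATAAA, is marked in the same way, and overlapping matches run together.
Il1rn upstream start, chr2:24336610-24336909, + strand: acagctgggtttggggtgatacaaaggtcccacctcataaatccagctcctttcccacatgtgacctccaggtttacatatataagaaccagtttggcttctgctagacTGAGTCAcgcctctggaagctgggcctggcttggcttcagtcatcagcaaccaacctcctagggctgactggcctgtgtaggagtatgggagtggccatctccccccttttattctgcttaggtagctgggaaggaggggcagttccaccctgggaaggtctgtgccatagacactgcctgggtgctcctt
Il1rn downstream start, chr2:24345041-24345340, + strand: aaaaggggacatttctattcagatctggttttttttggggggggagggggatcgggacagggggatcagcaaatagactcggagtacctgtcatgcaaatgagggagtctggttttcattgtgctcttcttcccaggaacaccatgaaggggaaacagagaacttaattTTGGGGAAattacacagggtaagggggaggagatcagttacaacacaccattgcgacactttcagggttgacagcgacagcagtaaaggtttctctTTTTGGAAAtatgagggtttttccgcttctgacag
Il18, chr9:50554450-50554749, + strand: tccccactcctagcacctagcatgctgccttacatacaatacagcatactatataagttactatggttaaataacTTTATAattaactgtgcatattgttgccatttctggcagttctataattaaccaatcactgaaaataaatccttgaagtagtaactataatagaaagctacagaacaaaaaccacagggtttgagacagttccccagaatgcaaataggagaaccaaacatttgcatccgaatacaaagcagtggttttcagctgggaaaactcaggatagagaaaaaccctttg
Il33 downstream start, chr19:29945540-29945839, + strand: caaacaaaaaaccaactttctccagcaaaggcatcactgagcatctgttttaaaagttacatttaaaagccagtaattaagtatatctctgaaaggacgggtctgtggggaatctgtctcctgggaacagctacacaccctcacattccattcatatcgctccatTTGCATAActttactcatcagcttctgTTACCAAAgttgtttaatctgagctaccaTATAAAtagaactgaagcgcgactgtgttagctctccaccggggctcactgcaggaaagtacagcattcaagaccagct

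The Il1rn upstream window held 1 CpG and an AP-1 match 141 bases before the start. The Il1rn downstream window held 5 CpGs, a C/EBP match 81 bases before the start and a pair of overlapping C/EBP matches after it. The Il18 window also held 1 CpG. Its single match was to the TATA box letters read on the opposite strand, 175 bases before the start. The Il33 downstream window had 5 CpGs, with a TATA box 29 bases before the start and C/EBP matches at 85 and 58 bases before it. All 4 windows lay below the median of 7 CpGs over 32851 RefSeq promoters. Among the 9 genes, the Il1rap window had the most CpGs, 33, more than 91.4% of all promoters. Low CpG numbers and these motifs were not particular to the genes shown. The windows of Il1a and Il1b, which had 0 counts in all libraries, held 5 and 3 CpGs. Both had a TATA box and a C/EBP match, and Il1a had an AP-1 match. The Casp1 window held 3 CpGs. Over all promoters, AP-1 was matched in 7.81%, the TATA box in 13.6%, C/EBP in 40.7% and the NF-kB consensus in 4.51%. The NF-kB consensus was matched in 1 window of the 9 genes, at Il1r1. These are letter matches in a short window and not measured sites. The Il18 window follows RefSeq's start, and the first Il18 start in GENCODE M21, at 50554827, lies past its end.

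Hepa1-6 cells transcribed part of the family only. In the knockdown libraries the order of mean TPM was Il1rn, Il33, Casp1, Il18, Il1r1 and Il1rap, and no neighbouring ranges overlapped. In the control libraries Il33 stood above Il1rn and Il1r1 above Il18, and each of these pairs had overlapping ranges. Il1a, Il1b and Il1r2 had 0 counts in all 4 libraries. Taking 3 counts as the floor, the level that a count of 0 still allows was 0.11 to 0.114 TPM for Il1a, 0.343 to 0.351 TPM for Il1b and 0.294 to 0.301 TPM for Il1r2, for counting error alone. The classical interleukin 1 agonists and the decoy receptor were therefore not detected at this depth in either group. The 9 genes together made up 75.19 and 69.31 TPM in the knockdown libraries and 41.13 and 46.07 TPM in the control libraries.

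**Figure D1:**
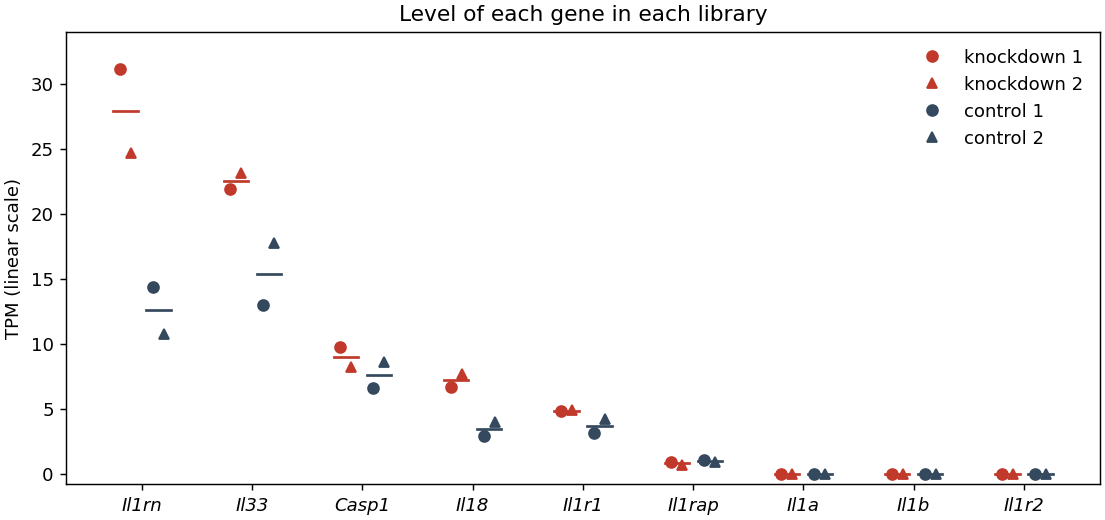
Level of each of the 9 genes, in TPM on a linear scale, in knockdown (red) and control (dark) libraries, with points for libraries and a line for each group mean. Il1rn at 31.15 and 24.71 TPM in knockdown lies above its control values of 14.41 and 10.76 TPM, while Il1a, Il1b and Il1r2 lie at 0 in every library.

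Of the 9 genes, 6 passed the filter on low counts and 3 did not, being at 0. At an adjusted p under 0.05 in the fit over all genes (edgeR quasi-likelihood, Benjamini-Hochberg), 764 of 12821 genes were called, or 5.96%, of which 538 were higher in knockdown (4.20% of those tested) and 226 lower (1.76%). Il1rn was called higher, none of the 9 was called lower, and the other 5 tested genes were not called. Since the genes were selected on this contrast, the count is a description and nothing is read from it. The median log2 fold change of the 6 was 0.57, beside -0.01 for all genes tested. The counts of the groups did not overlap in 5 of the 6, where 51.2% of all tested genes had groups that did not overlap. In TPM the groups were separate in 4 of the 6, beside 51.6% of all tested genes. With 2 libraries a group, an exact two-sided permutation test of a single gene cannot go below p = 0.333, so none was used.

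Il1rn (ENSMUSG00000026981.15, chr2:24336853-24351494, + strand) encodes the secreted and intracellular receptor antagonist. Its expected counts were 647 and 532 in the knockdown libraries, against 274 and 290 in the control libraries. The exact Poisson 95% intervals were 598 to 699 and 488 to 579 in knockdown, and 243 to 308 and 258 to 325 in control, for counting error only. Both knockdown libraries were high and the groups did not overlap. In TPM it averaged 27.9 ± 4.55 in knockdown and 12.6 ± 2.58 in control (SD, n = 2 each), a ratio of 2.22. Its log2 fold change was 1.07 ± 0.175 (SE), and 5.62% of tested genes had a larger change in either direction. It supplied 41.4% and 35.7% of the summed TPM of the 9 genes in the knockdown libraries, and 35.0% and 23.4% in the control libraries.

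The transcript makeup of Il1rn was not the same in all libraries. The deposited mean transcript length, weighted by the estimated abundance of each isoform, was 1554.77 and 1607.18 bases in knockdown and 1476.96 and 2017.12 bases in control. Control 2 stood apart from the other 3 libraries, which lay between 1476.96 and 1607.18 bases. Because TPM divides by length, control 2 had more Il1rn counts than control 1 but a lower TPM. The gene has 6 transcripts in GENCODE M21, between 321 and 2554 bases long. Il1rn-204, of 2474 bases, begins at the upstream start shown above, from which the intracellular form is made. Il1rn-201, of 1986 bases, and Il1rn-202, of 728 bases, begin in the downstream window, and the downstream first exon encodes the signal peptide of the secreted form. With 6 transcripts a mean length does not give the share of each, so which start supplied the additional counts was not tested.

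**Figure D2:**
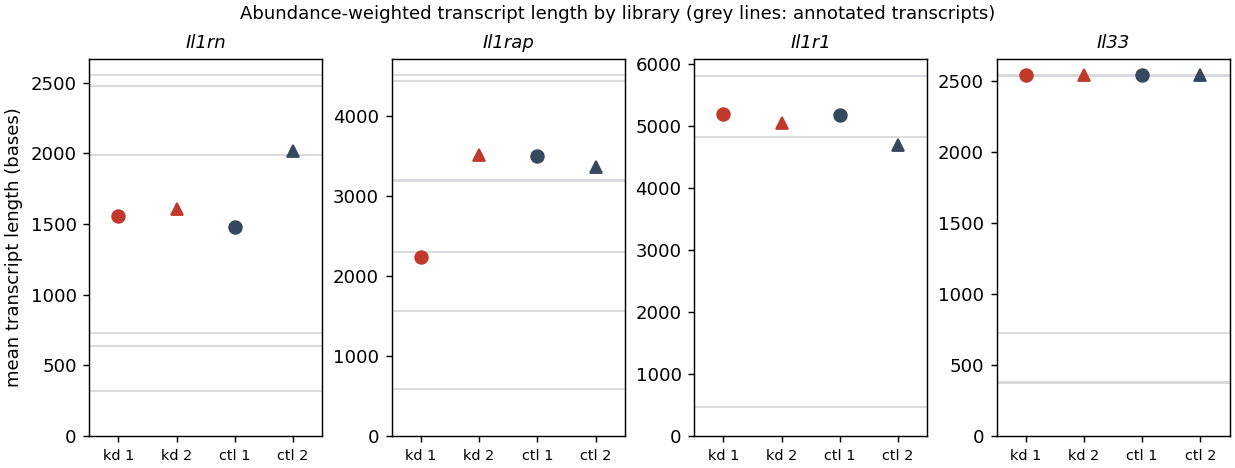
Mean transcript length in bases, weighted by estimated abundance, in each knockdown (kd) and control (ctl) library for Il1rn, Il1rap, Il1r1 and Il33, with annotated GENCODE M21 transcripts as grey lines. Il1rn is longest in control 2 (2017.12 bases), Il1rap is shortest in knockdown 1 (2237.04 bases), and Il33 stays at the length of its longest transcript in all 4 libraries.

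Il33 (ENSMUSG00000024810.16, chr19:29925114-29960718, + strand), the nuclear alarmin, was the most abundant agonist in both groups. Its counts were 799 and 843 in the knockdown libraries, against 461 and 620 in the control libraries. Both knockdown libraries lay above both control libraries, but the control libraries differed from each other by more than the knockdown libraries did. Its level was 21.90 and 23.19 TPM in knockdown and 12.99 and 17.75 TPM in control, a ratio of means of 1.47. The log2 fold change was 0.62 ± 0.174 (SE) and the gene was not called. Without control 2, the higher of the control libraries, the log2 fold change was 0.83 and Il33 was called, and without control 1 it was 0.43 and Il33 was not called. Its mean transcript length was 2544.0 and 2543.68 bases in knockdown and 2543.84 and 2544.0 bases in control. That is the length of Il33-201, 2544 bases, which is the longest of its annotated transcripts and begins at the downstream start printed above. The upstream start, used by the 2537-base Il33-202, therefore supplied little of the estimated RNA in any library.

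The ratio of Il1rn to Il33 TPM was 1.42 and 1.07 in the knockdown libraries, and 1.11 and 0.606 in the control libraries. Control 1 lay between the values of knockdown 1 and knockdown 2. The genes act on different receptors, and the ratio compares RNA levels only.

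Il18 (ENSMUSG00000039217.13, chr9:50554827-50581840, + strand) encodes a precursor cytokine cut by Casp1. It had 64 and 73 counts in the knockdown libraries, against 25 and 37 counts in the control libraries. The exact Poisson 95% intervals were 49.3 to 81.7 and 57.2 to 91.8 in knockdown, and 16.2 to 36.9 and 26.1 to 51 in control, so knockdown 1 and control 2 overlapped in counting error although the counts themselves were separate. It averaged 7.18 ± 0.707 TPM in knockdown and 3.44 ± 0.728 TPM in control (SD, n = 2 each), a ratio of 2.09. Its log2 fold change, 1.15 ± 0.306 (SE), was above that of Il1rn, with fewer counts behind it, and the gene was not called with all 4 libraries. Without control 2 the log2 fold change was 1.45 and Il18 was called, and with any other library left out it was 0.91 to 1.25 and Il18 was not called. Its mean transcript length was 862.66 and 858.36 bases in knockdown and 811.85 and 861.83 bases in control. Il18-203, of 885 bases, begins at 50554827, and Il18-204, of 860 bases, begins at 50565374. Il18-201 and Il18-202, of 702 bases each, begin at 50575273. All these starts lie past the end of the Il18 window printed above, and which start supplied the counts was not tested.

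Il18 had the largest fitted fold change of the 9 genes with all 4 libraries, although Il1rn exceeded it on TPM with limma and without control 1 or knockdown 2. Genes near to its profile over the 4 libraries were Ugt2b35, Pon3 and Itm2c. Likeness was the Euclidean distance between centred log2(TPM + 1) values over 9194 genes with a mean of at least 5 TPM. Ugt2b35, a UDP-glucuronosyltransferase, was nearest at a distance of 0.0891, with 42.15 and 45.35 TPM in knockdown and 20.81 and 24.77 TPM in control. Pon3, a paraoxonase, lay at 0.12, with 45.3 and 47.55 TPM in knockdown and 21.64 and 25.66 TPM in control. Itm2c, a membrane protein, lay at 0.133, with 210.56 and 217.95 TPM in knockdown and 99.29 and 119.05 TPM in control. These 3 genes were, like Il18, higher in both knockdown libraries than in both control libraries, and highest in knockdown 2, which the measure of likeness selects for.

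Il1r1 (ENSMUSG00000026072.12, chr1:40225080-40317257, + strand), the signalling receptor, had 380 and 372 counts in the knockdown libraries, against 241 and 283 counts in the control libraries. Its level was 4.81 and 4.87 TPM in knockdown and 3.15 and 4.18 TPM in control. The groups did not overlap, and the knockdown libraries were closer to each other than the control libraries were. The log2 fold change was 0.53 ± 0.178 (SE) and the gene was not called.

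Il1rap (ENSMUSG00000022514.14, chr16:26581704-26730117, + strand), the accessory chain shared by the receptors for interleukin 1 and Il33, was the lowest detected gene and had the only negative fold change. It had 29 and 35 counts in the knockdown libraries, against 53 and 41 counts in the control libraries, a log2 fold change of -0.54 ± 0.317 (SE), not called. In TPM, at 0.92 and 0.68 in knockdown and 1.05 and 0.86 in control, the groups overlapped. Knockdown 1 had a mean transcript length of 2237.04 bases, beside 3510.62 in knockdown 2 and 3499.73 and 3364.3 in the control libraries. That library alone was near the length of the short transcript Il1rap-206, 2306 bases, and its estimate rests on 29 counts. The ratio of Il1r1 to Il1rap TPM was 5.23 and 7.16 in the knockdown libraries and 3.0 and 4.86 in the control libraries.

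Casp1 (ENSMUSG00000025888.5, chr9:5298517-5307265, + strand) had 192 and 161 counts in the knockdown libraries, against 127 and 163 counts in the control libraries. Knockdown 2 lay just below control 2, so the groups overlapped. Its level was 9.73 and 8.18 TPM in knockdown and 6.61 and 8.57 TPM in control, with a log2 fold change of 0.30 ± 0.221 (SE), not called. The inflammatory caspases beside it on the chromosome, Casp4 and Casp12, had log2 fold changes of 0.37 ± 0.225 and 0.41 ± 0.193 (SE) and were not called either.

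**Figure D3:**
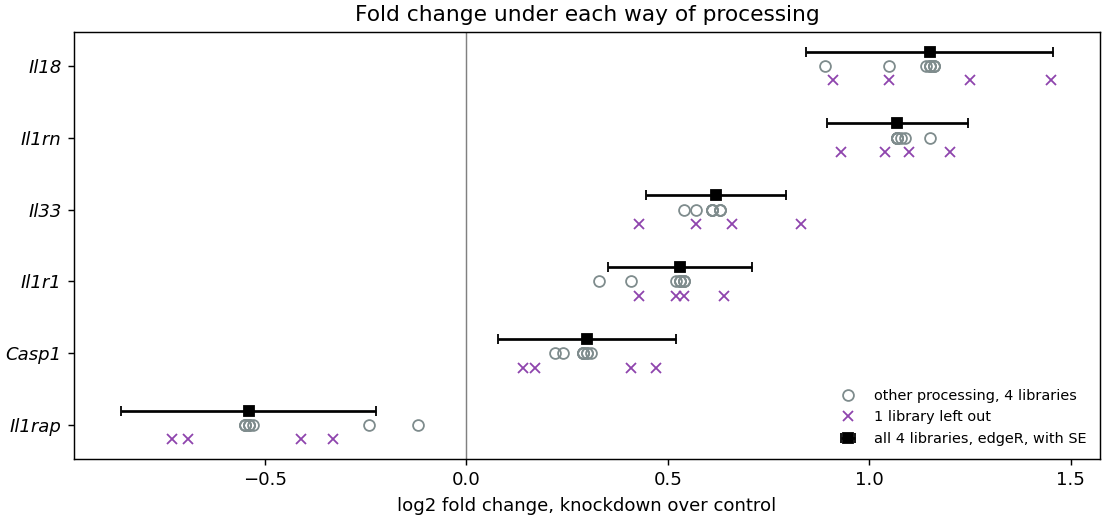
Log2 fold change of knockdown over control for the 6 tested genes, with all 4 libraries (black squares, SE bars), under other processing of the 4 libraries (grey circles) and with 1 library left out (crosses). Il18 and Il1rn lie at the right (1.15 and 1.07), Il1rap lies below 0 throughout (-0.73 to -0.12), and no gene crosses 0.

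The rest of the pathway was followed in 6 lists. Of the other ligands of the family and the Il18 binding protein, 1 of 6 genes passed the filter and none was called. The ligands Il1f5, Il1f6, Il1f8, Il1f9 and Il1f10 were at 0 in all libraries. Il18bp, which neutralises Il18, had 0.80 and 0.64 TPM in knockdown and 0.49 and 0.88 TPM in control. Among 7 further receptors, 3 were tested and none was called, and Il18r1, Il1rl2, Il1rapl1 and Il1rapl2 were at 0 in every library. Sigirr, an inhibitory receptor, was by far the most abundant, at 128.89 and 113.68 TPM in knockdown and 164.11 and 141.55 TPM in control, with a log2 fold change of -0.30 ± 0.139 (SE). Il18rap, the accessory chain for Il18, had 2.58 and 4.23 TPM in knockdown and 2.47 and 2.27 TPM in control. Il1rl1, the Il33 receptor, stayed between 0.03 and 0.47 TPM in all libraries. The binding chains for Il18 and Il33 were at or near 0 in cells that carried the RNA of both ligands.

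All 31 genes that carry the signal from the receptors to NF-kB and MAP kinases were tested. Of these, 3 were called higher in knockdown, 1 lower and 27 neither, beside 4.20% higher and 1.76% lower among all genes tested, and the list's median log2 fold change was -0.02. Irak2, a kinase recruited by Myd88, rose to 78.57 and 91.77 TPM in knockdown, against 66.66 and 60.94 TPM in control (log2 fold change 0.59 ± 0.134, SE; edgeR adjusted p = 0.0343). Mapkapk2, a kinase downstream of p38, rose by a log2 fold change of 0.62 ± 0.143 (SE; edgeR adjusted p = 0.0347). Neither call held without knockdown 2 (adjusted p = 0.0946 for Irak2 and 0.0663 for Mapkapk2) or without control 2 (adjusted p = 0.0536 for Irak2 and 0.0938 for Mapkapk2) in the same edgeR test. Of the 4 MAP kinase kinases in the list, Map2k3 and Map2k7 were not called. Map2k4, which activates JNK, rose to 55.82 and 62.87 TPM in knockdown, against 40.18 and 40.02 TPM in control (log2 fold change 0.66 ± 0.131, SE; edgeR adjusted p = 0.0182). Map2k6, which activates p38, fell to 23.20 and 22.14 TPM in knockdown, against 41.37 and 42.12 TPM in control (log2 fold change -0.78 ± 0.147, SE; edgeR adjusted p = 0.0148).

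In the list for the inflammasome and cytokine release, 17 of 25 genes were tested, 1 was called higher and none lower, a share near the 5.96% of all genes tested, with a median log2 fold change of -0.10. The call was Serpinb9, an inhibitor of granzyme B whose human counterpart also inhibits caspase 1, at 59.23 and 58.60 TPM in knockdown and 35.44 and 34.77 TPM in control (log2 fold change 0.81 ± 0.129, SE; edgeR adjusted p = 0.00682). The adaptor Pycard, which couples sensors to Casp1, did not exceed 0.04 TPM in any library, and Nlrp3 did not exceed 0.05 TPM. The DNA sensor Aim2 was present, at 38.18 and 39.14 TPM in knockdown and 36.48 and 60.01 TPM in control. The sensor genes Nlrc4, Naip2, Naip5 and Naip6 were also detected, at lower TPM than Aim2. Their log2 fold changes were -0.45, -0.37, -1.14 and -0.59, and none was called. Gsdmd, the pore-forming protein that Casp1 cleaves, had 29.41 and 32.99 TPM in knockdown and 38.24 and 39.82 TPM in control and was not called.

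Among 33 feedback and target genes of NF-kB, 28 were tested, 2 were called higher, 1 lower and 25 neither, with a median log2 fold change of 0.15. Among all genes tested, 4.20% were called higher and 1.76% lower. Mmp9, a matrix metalloproteinase, rose to 30.88 and 19.24 TPM in knockdown, against 2.65 and 2.83 TPM in control (log2 fold change 3.09 ± 0.255, SE; edgeR adjusted p = 0.000235). Ccl20, a chemokine, rose to 22.64 and 21.70 TPM in knockdown, against 11.44 and 10.69 TPM in control (log2 fold change 1.0 ± 0.209, SE; edgeR adjusted p = 0.0237). Without knockdown 1, Ccl20 was not called (edgeR adjusted p = 0.0525). Cxcl5, a neutrophil chemokine, fell to 3.53 and 3.21 TPM in knockdown, against 9.21 and 6.05 TPM in control (log2 fold change -1.12 ± 0.271, SE; edgeR adjusted p = 0.0423). That call was lost without control 1 (adjusted p = 0.0721 in edgeR) and without knockdown 2 (adjusted p = 0.0765 in edgeR). Tnf, Ptgs2 and Csf3, targets that interleukin 1 induces in many cells, were at 0 in all libraries.

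The list of hepatic genes that respond to interleukin 1 and interleukin 6 had 27 members, of which 11 were tested, 5 were called higher, 1 lower and 5 neither, beside 4.20% higher and 1.76% lower among all genes tested, with a median log2 fold change of 0.67. Hpx, the haem-binding protein haemopexin, rose to 238.42 and 244.55 TPM in knockdown, against 98.23 and 89.55 TPM in control (log2 fold change 1.42 ± 0.134, SE; edgeR adjusted p = 0.00044). Fgb, the fibrinogen beta chain, rose to 36.03 and 23.52 TPM in knockdown, against 13.51 and 15.69 TPM in control (log2 fold change 1.09 ± 0.199, SE; edgeR adjusted p = 0.0123). The other fibrinogen chains were near 0 and not tested. Fga had 4 and 0 counts in knockdown and 1 and 3 in control, and Fgg had 7 and 2 counts in knockdown and 0 and 1 in control. Lbp and Cp were also called higher, and Hp was called with 44 and 32 counts in knockdown and 1 and 0 counts in control. Hp passed the filter on low counts through its knockdown libraries only, and it is counted in the 5 called higher and in the median. In the same list, Saa1, Saa4, Orm1, Orm2, Orm3, Apcs and Hamp were at 0 in all libraries. Saa2, Saa3, Lcn2, Crp, Serpina3n and Itih4 had at most 3 counts in any library and were not tested. Cebpb, a transcription factor of the acute-phase response, fell to 43.69 and 34.87 TPM in knockdown, against 58.37 and 72.84 TPM in control (log2 fold change -0.68 ± 0.168, SE; edgeR adjusted p = 0.045). Its call was lost without knockdown 2 (edgeR adjusted p = 0.167) and without control 2 (edgeR adjusted p = 0.0964).

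**Figure D4:**
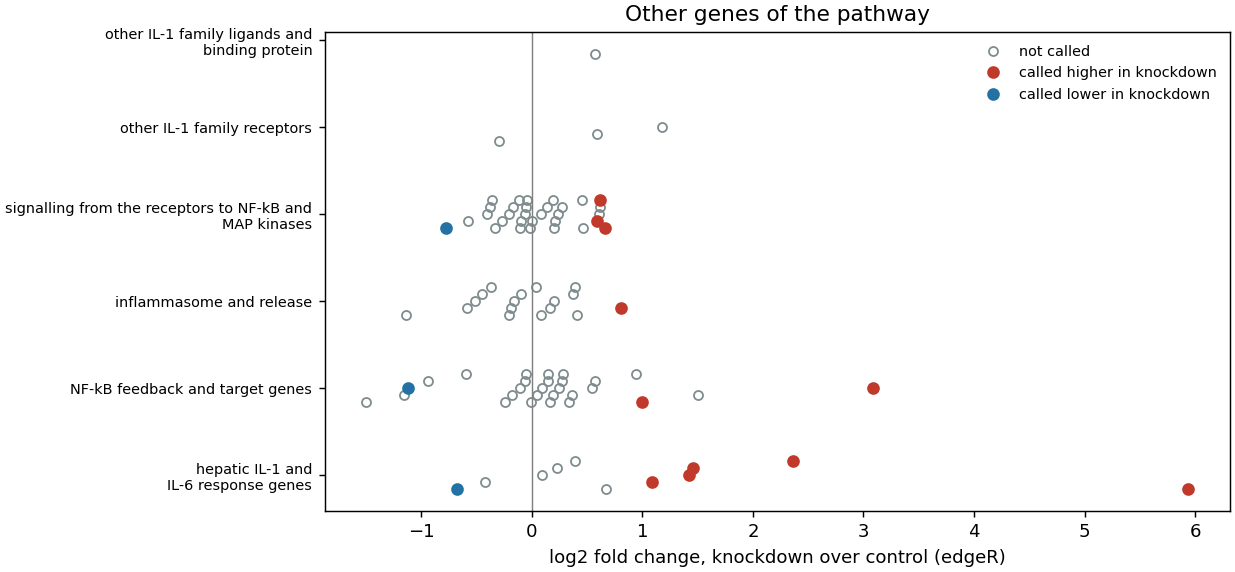
Log2 fold change of knockdown over control for the tested genes of 6 pathway lists, with filled points for genes called higher (red) or lower (blue) at an adjusted p under 0.05 and open points for the rest. The signalling genes lie about 0 (median -0.02) and the hepatic response genes lie mostly to the right (median 0.67), where the point farthest right is Hp, whose fitted value rests on 1 control count.

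Setdb1 silences repeats, and the deposited tables also count loci named only by their position. Within 50 kb of the 9 genes lay 19 such loci, of which 17 had 0 counts in all libraries and none was tested. The other 2 lay near Casp1, and the higher had 2 and 5 counts in knockdown and 1 and 10 counts in control. Within 200 kb there were 59 loci, 7 with any count and none tested. Of all such loci, 1038 were tested and 205 were called, or 19.7%. Among 45 other annotated genes within 100 kb of the 9, 15 were tested, 1 was called higher and none lower, a share near the 5.96% of all genes tested. That gene was Psd4, a guanine nucleotide exchange factor for Arf6, named after its values were seen, which lies 16086 bases past the end of Il1rn. It had 782 and 665 counts in the knockdown libraries, against 373 and 464 counts in the control libraries (log2 fold change 0.80 ± 0.173, SE; edgeR adjusted p = 0.0269). It was not called without knockdown 1 (edgeR adjusted p = 0.0595) or by limma on TPM (adjusted p = 0.345). In TPM its groups overlapped, at 13.22 and 9.76 in knockdown and 4.86 and 10.13 in control.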

How the data were processed

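RNA-seq of 2 Setdb1 knockdown and 2 control libraries was read from 4 deposited RSEM tables, with total RNA and a directional library kit per the labels' protocols. The submitters' processing notes name GRCm38, mm10, STAR, RSEM, FastQC and DESeq2. Expected counts, TPM and transcript lengths are the authors' deposited values. FPKM was not used. The annotation release and the strand setting of the authors' counting were not stated in the labels or file headers, so a gene and an overlapping antisense gene cannot be told apart (Il1bos at Il1b, Gm20319 at Il1rap, Gm16894 at Il1r2). Of these antisense genes, Gm20319 and Gm16894 had 0 counts in all libraries and Il1bos had 1 count, in control 2. Bco2 and Gm14023 also overlapped genes of the 9 in position. Bco2, across the first Il18 start, had 22 and 22 counts in knockdown and 10 and 13 in control. Its log2 fold change was 0.94 ± 0.409 (SE), not called, and its part in the Il18 counts was not tested. Gm14023, at Il1a, had 4 and 1 counts in knockdown and 4 and 3 in control. Of 54838 gene IDs, 54809 matched GENCODE M21. All counts of the 9 genes were whole to within 0.005.

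Expected counts were rounded, filtered with filterByExpr (minimum count 10), scaled by TMM and fitted with edgeR 4.0.16 (quasi-likelihood, R 4.3.3), group only, with Benjamini-Hochberg adjustment over 12821 genes and a threshold of 0.05. The deposited position-named loci were tested in a joint fit with the genes. The fit was tested on simulated data. Alternatives used DESeq2 1.42.0, limma 3.58.1 on log2(TPM + 1) and log2(TPM + 0.1), other filters and scaling, a replicate block and each library left out. Levels are means ± SD over libraries. All 9 genes are named, as are up to 6 called genes a list by adjusted p, the most abundant genes of lists without a call, and genes among the 5 nearest profiles, of which some are not reported here. Other list genes, such as Aim2, Pycard and Gsdmd, were named after their values were seen. The members and lists were chosen with earlier results of these data known. No protein sequences were used here.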

Additional observations from a re-analysis of the deposited data

How the results depend on the processing

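All log2 fold changes of the 6 tested genes kept their direction under all 13 alternatives: Il1rn 0.93 to 1.20, Il18 0.89 to 1.45, Il33 0.43 to 0.83, Il1r1 0.33 to 0.64, Casp1 0.14 to 0.47 and Il1rap -0.73 to -0.12. Without the filter on low counts 0 genes were called (3379 at an unadjusted p under 0.05), hence 0 of the 9 genes and 0 list genes, and Setdb1 stood at -2.49 without passing the threshold. limma on log2(TPM + 1) called 334 genes and 7 list genes, and on log2(TPM + 0.1) 327 and 7, against 764 genes and 14 list genes with edgeR; Irak2, Mapkapk2, Map2k4, Cxcl5, Cp, Fgb and Cebpb were the list genes lost. The DESeq2 Wald test called 2 of the 9 genes, Il1rn and Il33. Leaving out 1 library gave 740 to 1677 called genes, 1 to 3 of the 9 and 14 to 22 list genes. The highest counts of genes and list genes came without control 1, and the 3 of the 9 without control 2 were Il18, Il1rn and Il33. The labels number the libraries without saying that a number is shared. Over the genes tested, the deviations of same-numbered libraries from their group means were weakly and negatively correlated (correlation -0.183). The replicate block called 862 genes, 1 of the 9 and 15 list genes, and the crossed replicate block, added after seeing the data, called 2339, 4 and 34. The cause of these changes was not tested. A lone library left in a group was assumed to vary like the other group. Depth limits Il18 and Il1rap, with 25 to 73 counts a library.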

Other observations

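Some inflammatory genes that were not called varied widely between libraries of a group. Ccl2, a monocyte chemokine, had 417.65 and 608.93 TPM in the knockdown libraries and 522.01 and 188.03 TPM in the control libraries. Nfkbia, the NF-kB inhibitor induced early after stimulation, had 65.97 and 103.6 TPM in knockdown and 52.47 and 82.61 TPM in control. Fos had 5.0 and 13.45 TPM in knockdown and 5.06 and 15.82 TPM in control. Cxcl1, a neutrophil chemokine, had 2.15 and 4.57 TPM in knockdown and 5.68 and 14.37 TPM in control, with a log2 fold change of -1.50 ± 0.444 (SE), and was not called. Nfkbia, Fos and Cxcl1, but not Ccl2, were higher in the library numbered 2 of each group. These 4 genes were picked after their values were seen.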
